A study of Arabidopsis thaliana with 6 samples.

Results

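TAS3a (AT3G17185) and TAS3b (AT5G49615) are noncoding Arabidopsis thaliana transcripts that carry 2 binding sites for the microRNA miR390. All deposited positions named for either transcript were taken, which gave 2 of the 10 loci in the series, 947 positions for TAS3a and 587 for TAS3b. RNA that precipitated with a tagged form of DCL4 was sequenced in DCL4-8:FHA and DCL4-6:FHA plants, both of which carry missense forms of DCL4 with the FHA tag under the DCL4 promoter in the dcl4-2 mutant. The third line was untagged WT, ecotype Columbia (Col-0), which is the background of all lines. Flowers and seedlings of each of the 3 lines gave 6 libraries, 1 per line and tissue. Plant age and the number of plants or transgenic lines behind a library are not given in the sources used here. WT has neither the tag nor a missense form of DCL4, so abundance of a transcript and its recovery through the tag cannot be told apart.

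As background, DCL4 belongs to the Dicer-like enzymes, which chop double-stranded RNA; its products are small interfering RNAs of 21 nt. miR390 acts on TAS3 transcripts bound to the Argonaute protein AGO7. It directs cleavage at the 3′ site, while the 5′ site of TAS3a binds miR390 without being cut. RDR6 copies the cleaved transcript into double-stranded RNA, and DCL4 cuts it from the cleaved end inward. Some of the products, the tasiR-ARFs, act on mRNAs of the auxin response factors ARF2, ARF3 and ARF4, which pattern leaves and flowers and time the change of vegetative phase.

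The sequences below show where miR390 pairs with each transcript, with capitals for Watson-Crick pairs in the 4 sites and for the seed, bases 2 to 8, in miR390. Sequence was read from the RefSeq TAIR10.1 assembly, plus strand, 5′ to 3′.
miR390: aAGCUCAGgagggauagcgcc
TAS3a 5′ site, chr3:5862099-5862119: GGtGtTATCCtatCTGAGCTT
TAS3a 3′ site, chr3:5862343-5862363: ttgtCTATCCCTCCTGAGCTa
TAS3b 5′ site, chr5:20134458-20134478: GaCGCTATCttaCCTGAGCTT
TAS3b 3′ site, chr5:20134674-20134694: ttatgTATCCCTCtTGAGCTg
Both MIR390a and MIR390b give this mature miR390. The 5′ site of TAS3a had 16 paired bases and 4 G:U pairs, and none of miRNA bases 9 to 11 formed a Watson-Crick pair. Its 3′ site also had 16 paired bases, with bases 9 to 11 all paired and with the 5 mismatches at miRNA bases 1 and 18 to 21. In TAS3b the 5′ site had 17 paired bases and left miRNA bases 10, 11 and 12 unpaired or in a G:U pair. The 3′ site of TAS3b paired 14 bases, including 9 to 11, where the next best stretch of that transcript paired 12, so it is a weak match.

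Between the inner edges of the sites lie 223 nt in TAS3a and 195 nt in TAS3b. The stretches from site to site are shown because nearly all the coverage described below lies on them; capitals mark the miR390 sites and the repeat TTTTCTTGACCTTGTAAG.
TAS3a, chr3:5862099-5862363: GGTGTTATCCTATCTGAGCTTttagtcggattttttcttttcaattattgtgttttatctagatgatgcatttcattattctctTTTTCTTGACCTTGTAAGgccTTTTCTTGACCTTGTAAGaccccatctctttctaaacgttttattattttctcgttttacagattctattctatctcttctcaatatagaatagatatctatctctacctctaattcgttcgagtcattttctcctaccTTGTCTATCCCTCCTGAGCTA
TAS3b, chr5:20134458-20134694: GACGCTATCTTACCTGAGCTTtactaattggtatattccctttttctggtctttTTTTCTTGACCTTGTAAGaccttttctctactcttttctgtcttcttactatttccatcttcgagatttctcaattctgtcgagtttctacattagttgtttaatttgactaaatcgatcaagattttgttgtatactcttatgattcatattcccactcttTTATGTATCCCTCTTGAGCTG
These stretches were 56.2% identical over 235 bases aligned without a gap. TAS3a holds the repeat at 2 places and TAS3b at 1 place. The repeat lies in the part of the transcript that gives rise to the tasiR-ARFs, whose exact ends were not determined here. The 21 nt that begin with each copy are called repeat stretches below.
TAS3a, first copy, chr3:5862183-5862203: TTTTCTTGACCTTGTAAGgcc
TAS3a, second copy, chr3:5862204-5862224: TTTTCTTGACCTTGTAAGacc
TAS3b, chr5:20134512-20134532: TTTTCTTGACCTTGTAAGacc
Counted from the predicted cut at the 3′ site in steps of 21 nt, most of each repeat copy falls in step D7 or D8 of TAS3a and step D8 of TAS3b. The first bases of each copy fall in the adjacent step on its 5′ side. The steps are shown with the bases of the repeat in capitals, and the TTT that ends step D8 of TAS3a opens the second copy.
TAS3a step D7, chr3:5862207-5862227: TCTTGACCTTGTAAGacccca
TAS3a step D8, chr3:5862186-5862206: TCTTGACCTTGTAAGgccTTT
TAS3b step D8, chr5:20134517-20134537: TTGACCTTGTAAGaccttttc
The best match of the repeat stretches in each ARF gene lay in an exon, and capitals below mark the bases paired with the TAS3b repeat stretch.
ARF4, chr5:24309716-24309736, minus strand: GGTCTTgCAAGGTCAAGAAAA
ARF3, chr2:14325940-14325960, minus strand: GGTCTTgCAAGGTCAAGAAAt
ARF2, chr5:24913263-24913283, plus strand: GGTCTTgCAAGGTCAAGAAtA
ARF4 paired 20 of 21 bases and ARF3 and ARF2 19 each. ARF3 had another exon match that also paired 19 bases, at chr2:14325820-14325840. ARF4 had a further exon match of 19 bases, at chr5:24309506-24309526. The match is a property of the sequences, and neither small RNAs nor ARF mRNAs were analysed here.

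Both loci lie on the plus strand of their chromosomes. The annotated gene spans chr3:5861491-5862437 for TAS3a and chr5:20134200-20134786 for TAS3b in TAIR10.1, 1 base later at each end than the deposited positions. In TAS3a both sites fall in the last exon of each annotated isoform, which in the spliced isoform starts at 5861998. In TAS3b they fall in the last exon, which starts at 20134377. Each of the 898 and 538 stretches of 50 nt within the 2 loci occurs at a single place in the genome. Distances are given from the base opposite miRNA base 10 in a site, negative towards the 5′ end of the transcript.

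The 6 libraries held between 1961876 reads (WT seedlings) and 21771069 reads (DCL4-8:FHA seedlings), with 11255618 in DCL4-8:FHA flowers, 15786416 in DCL4-6:FHA flowers, 15861072 in WT flowers and 17781670 in DCL4-6:FHA seedlings. Levels are the mean coverage over all positions of a locus as scaled by the authors to library size (RPM). With 1 library per group no difference has a replicate check and no test was run. The intervals are exact 95% intervals that cover counting error alone.

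TAS3a was recovered with both tagged forms in both tissues, and most strongly with DCL4-8:FHA in flowers. Its level was 28.3 RPM there, from 6041 reads (95% Poisson interval 27.6 to 29.1). It was 7.76 RPM in DCL4-8:FHA seedlings, from 3200 reads (7.49 to 8.03). DCL4-6:FHA plants had 0.511 RPM in flowers, from 153 reads (0.434 to 0.600), and 0.166 RPM in seedlings, from 56 reads (0.126 to 0.216). WT flowers had a single read, 0.00333 RPM. WT seedlings had 0 reads, where a floor of 3 reads corresponds to 0.0807 RPM. The intervals of the 4 tagged libraries did not overlap, and all 4 levels lay above WT of the same tissue.

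TAS3b had most of its reads in the flower libraries. With DCL4-8:FHA it reached 7.14 RPM in flowers, from 943 reads (6.69 to 7.61). In DCL4-6:FHA flowers it had 0.140 RPM, from 26 reads (0.0916 to 0.206), and in WT flowers 0 reads, a floor of 0.0161 RPM. Seedlings held 10 reads with DCL4-8:FHA, 0.0391 RPM (0.0188 to 0.0720), and 2 reads with DCL4-6:FHA, 0.00958 RPM (0.00116 to 0.0346). The intervals of these 2 seedling libraries overlap, and the level of each lies below the WT seedling floor of 0.130 RPM. Whether TAS3b in seedlings lies above background could therefore not be assessed at the depth of WT seedlings, which had 0 reads.

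**Figure D1:**
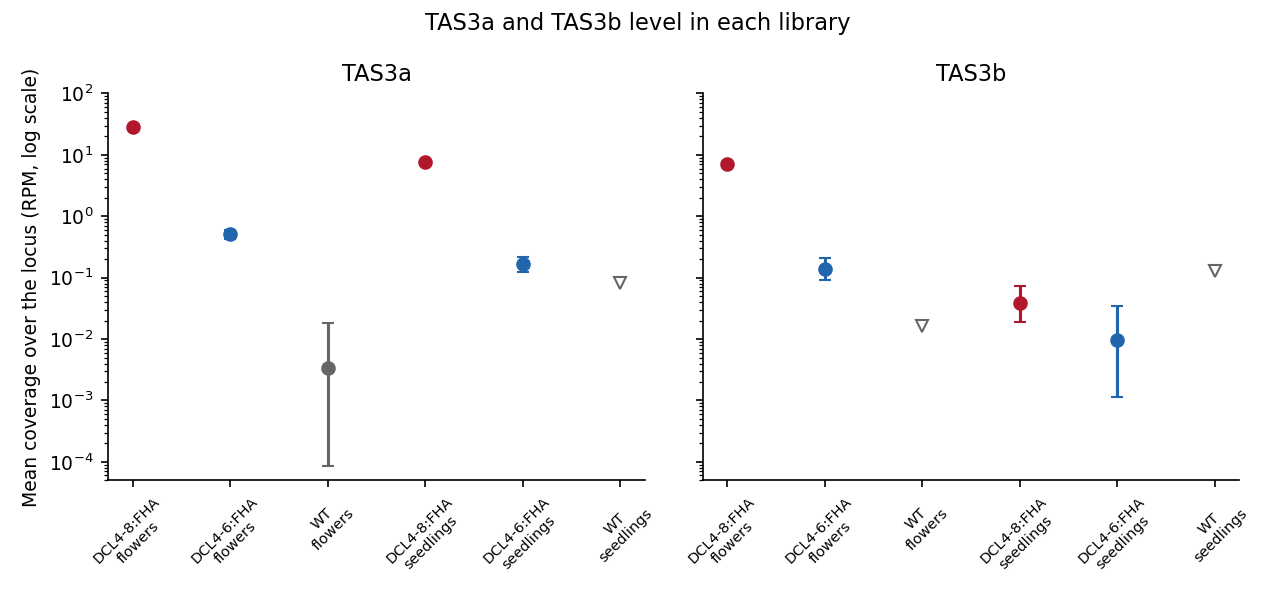
Mean coverage of TAS3a (left) and TAS3b (right) in each of the 6 libraries, in RPM on a log axis. Filled points are levels with exact Poisson 95% intervals (counting error), and open triangles mark the floor of 3 reads in WT libraries with 0 reads; TAS3a with DCL4-8:FHA sits at 28.3 RPM in flowers and 7.76 RPM in seedlings, and the TAS3b seedling points lie below the WT seedling floor.

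Over WT of the same tissue, TAS3a was 8513-fold higher with DCL4-8:FHA in flowers (95% interval 1527 to 336292) and 153-fold higher with DCL4-6:FHA (27.2 to 6111), both against the single WT read. In seedlings, with 0 WT reads, it was at least 96.1-fold higher with DCL4-8:FHA and at least 2.06-fold higher with DCL4-6:FHA, a bound that was 1.36-fold with the maximum over positions in place of the mean. TAS3b in flowers was at least 443-fold higher with DCL4-8:FHA and at least 8.71-fold higher with DCL4-6:FHA. No fold is given for TAS3b in seedlings. A locus was called at 2-fold or more with an interval, where there was one, that excludes 1. By that rule both transcripts were above WT in flowers with either form, as were 100% of the 9 loci with reads. In seedlings TAS3a alone of the pair was called, against 88.9% of the loci with DCL4-8:FHA and 66.7% with DCL4-6:FHA.

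The comparison of the forms asks whether they differ in the substrates that they hold. With 1 library per form and tissue, such a difference cannot be told apart from a difference in recovery between the libraries. In flowers DCL4-8:FHA recovered both TAS3 transcripts at about the same multiple of DCL4-6:FHA. The ratio was 55.5 for TAS3a (95% interval 47.2 to 65.4) and 51.1 for TAS3b (34.5 to 78.3). The TAS3a ratio divided by the TAS3b ratio was 1.09 (0.685 to 1.67), so a difference between them was not detectable at this depth. Both were called, against 88.9% of the 9 loci. In seedlings TAS3a was 46.7-fold higher with DCL4-8:FHA than with DCL4-6:FHA (35.8 to 61.9), and TAS3b gave 4.08 from 10 against 2 reads (0.870 to 38.3). One of the pair was called there, against 66.7% of the loci. The TAS3a ratio of flowers divided by that of seedlings was 1.19 (0.855 to 1.63). Divided by the median ratio of the other loci, DCL4-8:FHA over DCL4-6:FHA was 1.72 for TAS3a and 1.59 for TAS3b in flowers and 1.83 and 0.160 in seedlings, under the 2-fold call. With distinct left ends in place of reads the TAS3a ratio was 5.13 in flowers and 5.10 in seedlings, and the number of distinct ends cannot exceed the number of positions.

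The miR173-triggered transcripts TAS1a, TAS1b, TAS1c and TAS2, which are cut at a single microRNA site, frame these values. In flowers their ratios of DCL4-8:FHA over DCL4-6:FHA were 147, 78.8, 126 and 32.2, so both TAS3 ratios lie inside that range. The seedling ratios were 88.5, 45.1, 71.6 and 25.5, and the TAS3a value lies inside that range too. TAS3a made up 25.5% of the reads on these 6 TAS loci in DCL4-8:FHA flowers (95% Clopper-Pearson interval 25.0 to 26.1) and 25.6% in DCL4-6:FHA flowers (22.1 to 29.3). In seedlings its share was 9.93% with DCL4-8:FHA (9.61 to 10.3) and 8.30% with DCL4-6:FHA (6.33 to 10.6). The shares thus differed between tissues beyond their counting intervals and overlapped between the forms within a tissue. By level, TAS3a in DCL4-8:FHA flowers came after TAS2, at 30.1 RPM, and ahead of the other 8 loci, while in DCL4-8:FHA seedlings it came after TAS2, TAS1a and TAS1c.

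Between tissues, both transcripts were higher in flowers. TAS3a was 3.65-fold higher in flowers than in seedlings with DCL4-8:FHA (3.50 to 3.81) and 3.08-fold higher with DCL4-6:FHA (2.252 to 4.26). TAS3b was 182-fold higher in flowers with DCL4-8:FHA (98.7 to 382) and 14.6-fold higher with DCL4-6:FHA (3.67 to 127), the last from 26 against 2 reads. The seedling levels under both TAS3b ratios lay below the WT seedling floor, and these ratios carry that limit. Both transcripts were called with each form, against 66.7% of the 9 loci with DCL4-8:FHA and 33.3% with DCL4-6:FHA. The TAS3b calls rest on the same seedling levels. That of DCL4-6:FHA, at 0.00958 RPM, is also under the floor of its own library, 0.0144 RPM. Fewer cells with the transcript and less of it per cell cannot be told apart in these whole tissues, nor can a difference in recovery between 2 libraries. Divided by the median ratio of the other loci, flowers over seedlings with DCL4-8:FHA was 1.71 for TAS3a, under the 2-fold call, and 85.4 for TAS3b.

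The balance between the 2 transcripts is free of any scaling that acts on a whole library. TAS3a was 3.97-fold above TAS3b in DCL4-8:FHA flowers (3.71 to 4.26) and 3.66-fold above it in DCL4-6:FHA flowers (2.40 to 5.76). In DCL4-8:FHA seedlings TAS3a was 198-fold above TAS3b (108 to 414), and in DCL4-6:FHA seedlings 17.3-fold above it (4.59 to 147). These values stand against 10 and 2 TAS3b reads, whose levels lay below the WT seedling floor. TAS3b gave 13.5% of the reads of the pair in DCL4-8:FHA flowers and 14.5% in DCL4-6:FHA flowers, against 0.312% and 3.45% in seedlings of the same lines. With DCL4-8:FHA the flower to seedling ratio of TAS3b was 49.95 times that of TAS3a (27.0 to 105). With DCL4-6:FHA it was 4.76 times that of TAS3a (1.12 to 42.5), a value that rests on 2 seedling reads.

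Coverage lay almost wholly between the miR390 sites. Measured between the bases opposite miRNA base 10, this interval is 25.8% of the TAS3a positions. It held 99.7% of TAS3a coverage in DCL4-8:FHA flowers (99.5 to 99.8), 98.8% in DCL4-6:FHA flowers (95.4 to 99.8), 99.8% in DCL4-8:FHA seedlings (99.5 to 99.9) and 96.5% in DCL4-6:FHA seedlings (87.7 to 99.6). In TAS3b the interval is 36.8% of positions and held 99.6% of coverage in DCL4-8:FHA flowers (98.9 to 99.9) and 97.4% in DCL4-6:FHA flowers (80.4 to 99.9). The seedling reads of TAS3b, 10 with DCL4-8:FHA and 2 with DCL4-6:FHA, also fell between the sites.

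Outside the sites little was left. In DCL4-8:FHA flowers TAS3a had a mean of 119 RPM between the inner edges of the sites, 0.0880 RPM over the 609 positions 5′ of the 5′ site, and 0.00365 RPM over the 73 positions 3′ of the 3′ site. The last of these is 1 read that reaches 3 bases past the site. The same 3 segments of TAS3a in DCL4-8:FHA seedlings had 32.7, 0.0140 and 0 RPM. TAS3b in DCL4-8:FHA flowers had 21.3 RPM between the sites, 0.00377 RPM 5′ of them and 0.0400 RPM 3′ of them. Both TAS3b flank means lie below the floor of 3 reads for their segments, 0.0515 and 0.146 RPM. The 3′ mean still comes from a depth of up to 6 reads, which reach at most 22 nt into that segment of 91 nt.

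**Figure D2:**
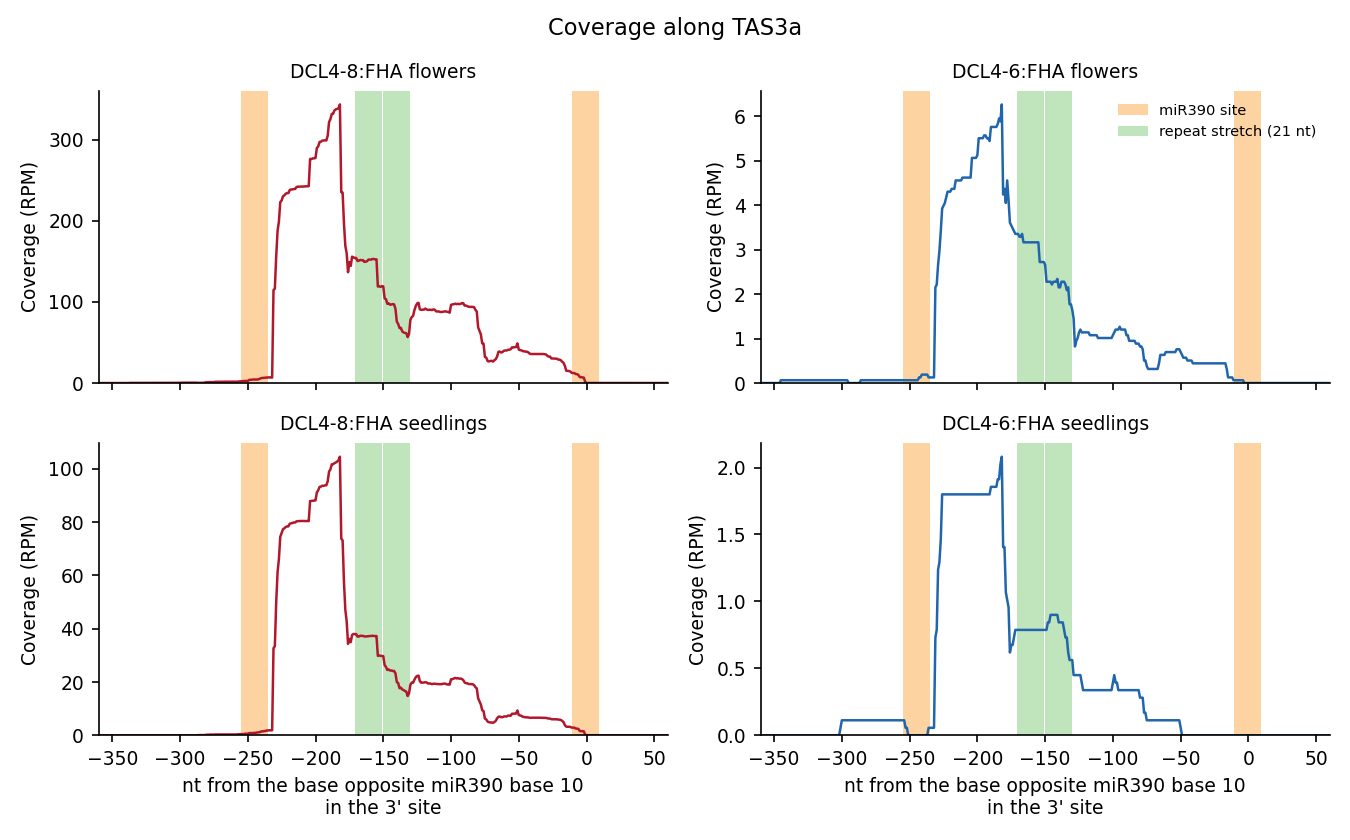
Coverage along TAS3a in the 4 tagged libraries, in RPM, against the distance in nt from the base opposite miR390 base 10 in the 3′ site; each panel has its own scale. Orange bands are the miR390 sites and green bands the repeat stretches of 21 nt; every panel rises just 3′ of the 5′ site, peaks at -182 nt and falls towards the 3′ site.

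Within the interval TAS3a coverage was lopsided towards the 5′ site. Its highest position was 5862172 in all 4 tagged libraries, 62 nt 3′ of the 5′ site and 182 nt 5′ of the 3′ site. The maximum was 344 RPM in DCL4-8:FHA flowers, 6.27 RPM in DCL4-6:FHA flowers, 105 RPM in DCL4-8:FHA seedlings and 2.08 RPM in DCL4-6:FHA seedlings. From the first to the last base with at least 0.5 times that maximum, coverage spanned 50, 73, 50 and 51 nt in these libraries. The profiles in 50 nt bins gave Pearson correlations of 0.980 to 0.995 over the 6 pairs of tagged libraries, described over 20 bins that share the mostly empty flanks.

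The TAS3b peak in DCL4-8:FHA flowers, at position 20134542, also lay nearer the 5′ site. It was 73 nt 3′ of the 5′ site and 143 nt 5′ of the 3′ site. The distance to the 3′ site was shorter than the 182 nt of TAS3a, in an interval of 216 positions against 244 in TAS3a. The maximum was 60.6 RPM, and the span at 0.5 times the maximum was 90 nt. In DCL4-6:FHA flowers the maximum of 1.27 RPM, 20 reads, was shared by 7 positions from -185 nt on. With 26 reads in that library the difference in position was not resolved. Its profile correlated with that of DCL4-8:FHA flowers at 0.882 over 13 bins.

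**Figure D3:**
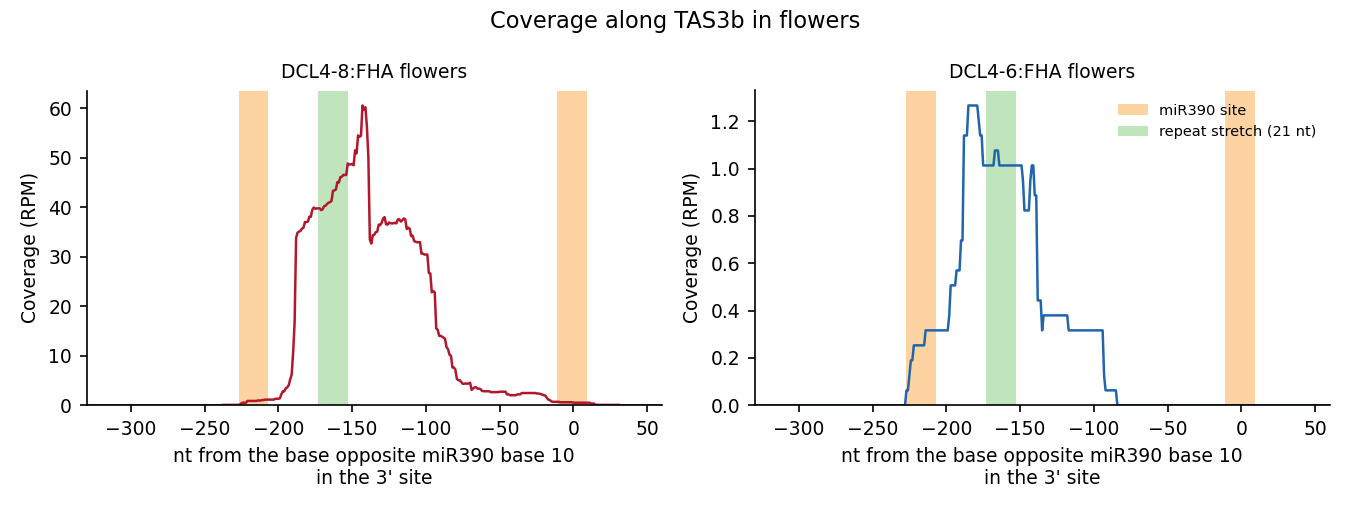
Coverage along TAS3b in DCL4-8:FHA flowers (left) and DCL4-6:FHA flowers (right), in RPM, against the distance in nt from the base opposite miR390 base 10 in the 3′ site. Orange bands are the miR390 sites and the green band the repeat stretch of 21 nt; the DCL4-8:FHA peak of 60.6 RPM lies at -143 nt, and DCL4-6:FHA rests on 26 reads.

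The repeat stretches sat differently under these peaks. In TAS3a the first copy starts 11 nt past the peak and had 146 RPM in DCL4-8:FHA flowers, 42.4% of the maximum. The second copy, 32 nt past the peak, had 82.4 RPM, 24.0% of the maximum. In DCL4-8:FHA seedlings they had 35.9 and 21.1 RPM, 34.3% and 20.2% of the maximum. The order of the copies was the same in DCL4-6:FHA flowers, at 3.12 and 2.19 RPM, while DCL4-6:FHA seedlings had 0.787 and 0.790 RPM from a mean depth of 14 reads. In TAS3b the stretch lies within the high coverage, at 43.1 RPM in DCL4-8:FHA flowers, 71.1% of the maximum.

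Near the 5′ site TAS3a coverage rose most at a single base. At 12 nt 3′ of the site's base opposite miRNA base 10 it was 76 reads deep in DCL4-8:FHA flowers, and at 13 nt it was 1291 reads deep. The depth at these 2 bases was 2 and 34 reads in DCL4-6:FHA flowers, 41 and 711 reads in DCL4-8:FHA seedlings, and 1 and 13 reads in DCL4-6:FHA seedlings. This step lies at position 5862123, 4 nt past the end of the 5′ site. Depth went on rising after it, to 2512 reads at 18 nt in DCL4-8:FHA flowers and 1622 in DCL4-8:FHA seedlings. Reads of 50 nt that start at the step end at 5862172, the coverage peak.

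The left ends of reads, recovered from the coverage on the assumption that every read is 50 nt long, place 20.2% of the TAS3a reads of DCL4-8:FHA flowers at this position (19.2 to 21.2). The share was 20.9% in DCL4-6:FHA flowers (14.8 to 28.2), 20.97% in DCL4-8:FHA seedlings (19.6 to 22.4) and 21.4% in DCL4-6:FHA seedlings (11.6 to 34.4). The single TAS3a read of WT flowers starts at the same position. Together, the bases from 5862123 to 5862128 held 40.4% of left ends in DCL4-8:FHA flowers and 39.2% in DCL4-6:FHA flowers. In seedlings they held 49.5% with DCL4-8:FHA and 55.4% with DCL4-6:FHA. The values carry no strand, so a left end is the 5′ end of a read from the plus strand or the 3′ end of a read from the minus strand. Negative estimates of 7.30% to 11.1% of the positive total in these 4 libraries show that some reads do not meet the assumption. The stretch at this position is shown with its first 21 bases in capitals.
TAS3a, chr3:5862123-5862172: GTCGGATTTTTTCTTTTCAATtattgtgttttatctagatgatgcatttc
TAS3b, chr5:20134497-20134546: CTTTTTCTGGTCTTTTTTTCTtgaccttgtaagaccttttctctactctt

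TAS3b also had 1 dominant left end, the position of its stretch above. It held 20.4% of reads in DCL4-8:FHA flowers (17.9 to 23.2) and 7 of 26 reads in DCL4-6:FHA flowers, 26.9% (11.6 to 47.8). It lies 28 nt 3′ of the 5′ site's reference base and 19 nt past the end of the site, farther from it than the TAS3a position is. Coverage rose over 3 bases there in DCL4-8:FHA flowers, from 70 reads at 25 nt to 121, 189 and 381 reads at 26, 27 and 28 nt. In DCL4-6:FHA flowers the negative estimates came to 31.6%, so its left ends are poorly resolved.

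**Figure D4:**
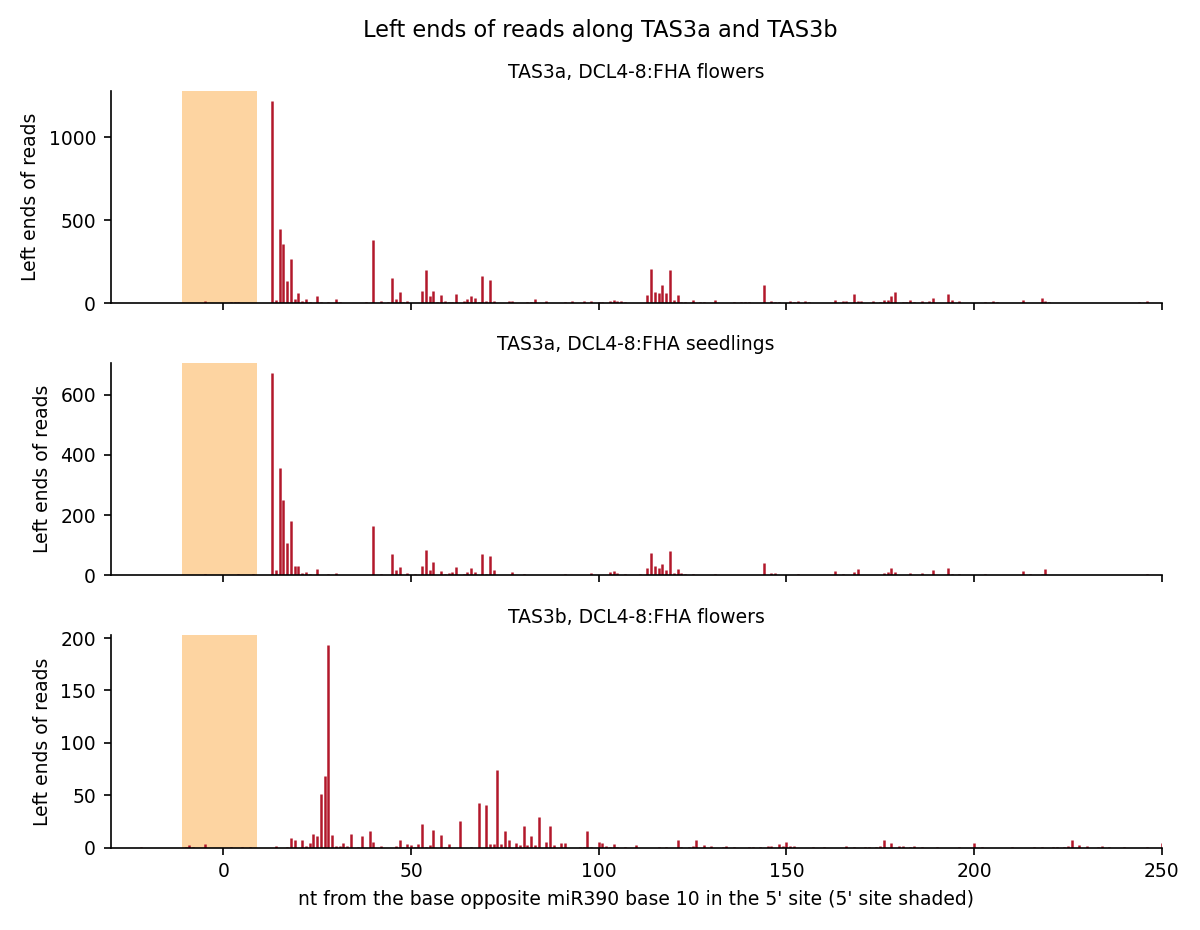
Number of left ends of reads at each base, recovered from coverage with a read length of 50 nt, against the distance in nt from the base opposite miR390 base 10 in the 5′ site, whose 21 nt are shaded. TAS3a with DCL4-8:FHA in flowers (top) and seedlings (middle) has its highest bar at 13 nt with 1221 and 672 left ends, and TAS3b in flowers (bottom) at 28 nt with 193; negative estimates are drawn as 0.

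With DCL4-8:FHA the most frequent left end held a larger share of reads in the TAS3 transcripts than in the miR173-triggered ones. It held 20.2% of TAS3a and 20.4% of TAS3b reads in flowers, against 4.41% in TAS1a, 5.96% in TAS1b, 7.38% in TAS1c and 7.36% in TAS2. In seedlings it held 20.97% in TAS3a, against 5.67%, 7.16%, 6.95% and 8.25% in the same 4 loci. With DCL4-6:FHA the gap was smaller. These libraries held fewer reads of the 6 loci, and whether that sets the gap was not tested. In flowers the share was 20.9% in TAS3a and 26.9% in TAS3b, against 9.68% in TAS1a, 17.2% in TAS1b, 18.9% in TAS1c and 8.497% in TAS2. The TAS3a interval there, 14.8 to 28.2, holds the TAS1b and TAS1c shares. In seedlings it was 21.4% in TAS3a, against 11.8% in TAS1a, 10.2% in TAS1c and 14.01% in TAS2. The TAS3a interval in seedlings, 11.6 to 34.4, holds the TAS1a and TAS2 shares. TAS1b had 19 reads in that library, under the 20 that a profile needed. These shares are a description, and copies made by PCR could not be told from separate molecules. In DCL4-8:FHA flowers the TAS3 reads also covered fewer positions, 350 in TAS3a and 270 in TAS3b. The miR173-triggered loci had 550 in TAS1a, 457 in TAS1b, 521 in TAS1c and 618 in TAS2 there. In DCL4-6:FHA flowers TAS3a covered 333 positions and TAS3b 143. TAS1b covered 296 there, fewer than TAS3a, while TAS1a covered 382, TAS1c 402 and TAS2 438. How far the covered length sets the shares was not tested.

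The dominant TAS3a left end lies 231 nt 5′ of the 3′ site, which is 11 whole steps of 21 nt from the cleavage point. Counted over all left ends between the sites, 21.6% in DCL4-8:FHA flowers (20.6 to 22.7), 20.5% in DCL4-6:FHA flowers (14.5 to 27.6), 21.5% in DCL4-8:FHA seedlings (20.2 to 23.0) and 20.7% in DCL4-6:FHA seedlings (11.2 to 33.4) lay at a whole number of such steps, where an even spread gives 4.76%. Without that 1 position the shares were 2.50%, 0.775%, 1.66% and 0%. The in-register share of TAS3a therefore rested on a single position. In TAS3b it was 7.54% in DCL4-8:FHA flowers (5.97 to 9.36) and 0 of 30 estimated left ends in DCL4-6:FHA flowers (0% to 11.6%), and the dominant left end lay 1 base off the register. Positions were read as counted from 1. Counted from 0, the TAS3a position would lie 1 base off as well. Negative estimates were counted as 0 in the in-register shares, so TAS3a in DCL4-8:FHA flowers had 6220 left ends for 6041 reads.

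With DCL4-8:FHA, TAS3a coverage thinned out towards the 3′ site and was down to 1 read at the cleavage point. In DCL4-8:FHA flowers it was 342 reads deep at -26 nt, 239 at -16 nt, 171 at -15 nt and 74 at -2 nt. It was 16 at -1 nt and 1 at the base opposite miRNA base 10. In DCL4-8:FHA seedlings the depth at these bases was 132, 84, 71, 33, 5 and 1. The expected cut lies between the last 2 of these bases. A fall in depth of 58 reads in flowers and 28 in seedlings lay 1 base before it. In flowers a larger fall, of 68 reads, lay at -15 nt. Counted from 0, the fall of 58 and 28 reads would lie at the cut itself. In DCL4-6:FHA flowers 7 reads reached -17 nt and none reached -3 nt, and in DCL4-6:FHA seedlings the last covered base was at -50 nt.

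The 5′ site of TAS3a was crossed more often. In DCL4-8:FHA flowers 49 reads covered both bases at its centre, 1.27% of the maximum depth, against 1 read across the 3′ site, 0.0258% of the maximum. The maximum is a depth of other reads, so these percentages are not shares and carry no interval. In DCL4-8:FHA seedlings the depth was 20 reads across the 5′ site and 1 read across the 3′ site. TAS3b showed no end of coverage at its 3′ site, where few reads lay and most of them ran through. In DCL4-8:FHA flowers 10 reads covered the centre of its 5′ site and 6 the centre of its 3′ site, the depth across the 3′ site was 7 and 6 on its 2 central bases, and coverage reached 22 nt past the end of the site. Coverage of TAS3b had fallen earlier, to 28 reads by -26 nt and 9 reads by -15 nt.

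Between the TAS3a sites the excess of flowers over seedlings was not even. With DCL4-8:FHA the ratio was 3.05 in the bin from -250 to -201 nt (2.82 to 3.30), 3.50 from -200 to -151 nt (3.27 to 3.74), 4.26 from -150 to -101 nt (3.80 to 4.77), 4.98 from -100 to -51 nt (4.33 to 5.76) and 5.20 from -50 to -1 nt (4.18 to 6.52). The interval of the first bin overlaps that of its neighbour and lies below those of the other 3 bins. The bin from -300 to -251 nt, which reaches past the 5′ site, gave 5.03 (1.68 to 18.0) from 13 and 5 reads, and its interval overlaps those of all 5 bins. Flower coverage thus reached relatively farther towards the 3′ site. The bin next to the 3′ site held 5.02% of TAS3a coverage in DCL4-8:FHA flowers (4.49 to 5.61) against 3.52% in DCL4-8:FHA seedlings (2.92 to 4.23). With DCL4-6:FHA the 3 bins with enough reads gave 2.49 (1.42 to 4.53), 3.43 (2.09 to 5.83) and 2.70 (1.25 to 6.33), which do not resolve a gradient of this size. Neighbouring bins share reads of 50 nt, and each ratio compares 1 library with another.

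**Figure D5:**
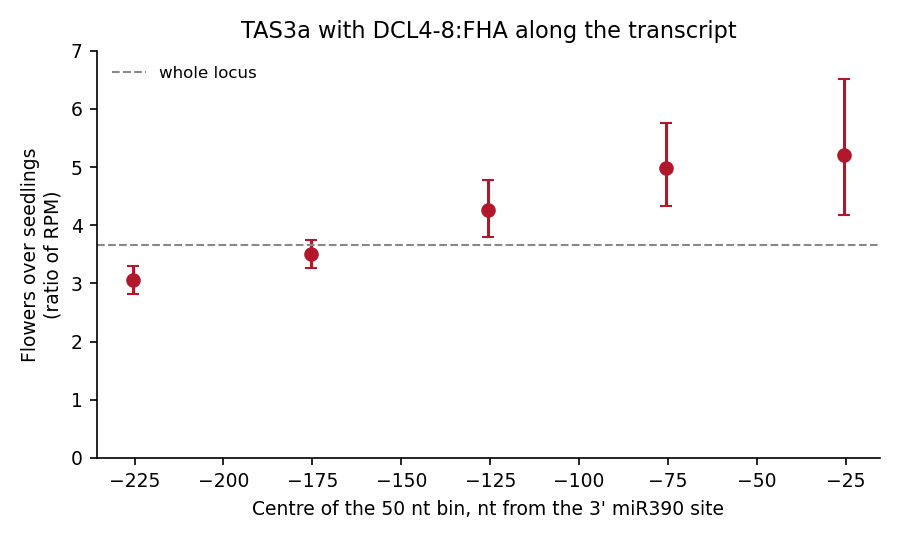
Ratio of TAS3a coverage in flowers over seedlings with DCL4-8:FHA in bins of 50 nt, against the centre of the bin in nt from the 3′ miR390 site. Bars are exact conditional 95% intervals (counting error) and the dashed line is the whole locus at 3.65; the ratio is 3.05 in the bin nearest the 5′ site and 5.20 in the bin nearest the 3′ site.

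Along TAS3a the ratio of DCL4-8:FHA over DCL4-6:FHA showed no resolved gradient. In flowers it lay between 50.7 (39.8 to 65.7) and 81.9 (46.6 to 159) over the 5 bins between the sites, with overlapping intervals. In TAS3b it was 34.1 from -200 to -151 nt (20.4 to 61.6) and 78.7 from -150 to -101 nt (39.6 to 183), from 15 and 8 DCL4-6:FHA reads, and these intervals overlap too.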

How the data were processed

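Immunoprecipitated RNA of 6 libraries was sequenced as single-end reads of 50 nt, per the labels' protocols. The authors deposited read coverage per position, a signal scaled to library size (RPM). HISAT2 2.0.5, bedtools 2.25.0 and the TAIR10 build are named, without roles, per the submitters' processing notes. The sources used here do not say how strands and duplicates were handled. The labels call the young plants seedlings, while the deposited tables call them seeds.

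Every value was a whole multiple of 1 step per library, to within 1.07e-08 of a read, which gave the library totals. The coverage sum divided by 50 was taken as the number of reads. As these are coverage values, no count model was fitted. The named genes are both transcripts in all 6 libraries. Members, lists and comparisons were chosen with earlier results of these data known. The following were set after values had been seen: the left ends, the shares in register, the ratios of ratios, the ratios along the transcript (at least 5 reads per bin and library), the repeat stretches and their ARF matches, the 2-fold call and the tolerances of 21 nt for a peak and 0.05 for a correlation.

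Levels have Poisson, ratios conditional binomial and shares Clopper-Pearson intervals, all exact at 95% and for counting error alone, since no molecular identifiers tell copies of 1 molecule apart. With 0 WT reads, 3 reads are the floor. Profiles needed 20 reads. Positions were read as counted from 1, because the 2 arms of the inverted repeat IR71 then had more similar coverage at 1152 paired bases (a mean difference of 0.120 RPM in DCL4-8:FHA flowers, against 0.329 RPM counted from 0), likewise in the other 3 tagged libraries. Locus bounds 1 base before the annotated genes would, alone, go with counting from 0. Sites were the best pairing with miR390 in RefSeq TAIR10.1, whose sequence was aligned in MAFFT 7.526. Intervals and left ends were tested on simulated reads (Python 3.11.15, NumPy 2.4.6, SciPy 1.17.1). The left-end simulation had few shorter reads. It also had more reads than TAS3b had in any library or TAS3a had with DCL4-6:FHA, so it does not cover those profiles. All 6 libraries were used.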

Additional observations from a re-analysis of the deposited data

How the results depend on the processing

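No called ratio went below 1 under the alternatives run, while the uncalled TAS3b seedling ratio of DCL4-8:FHA over DCL4-6:FHA crossed 1 under the median scaling. No replicate could be left out. No paired analysis was possible because each group has 1 library. The maximum over positions in place of the mean gave TAS3a levels of 344 and 6.27 RPM in flowers and 105 and 2.08 RPM in seedlings for DCL4-8:FHA and DCL4-6:FHA in that order, and TAS3b levels of 60.6, 1.27, 0.413 and 0.0562 RPM in the same order. Over the positions between the sites TAS3a had 109.6, 1.96, 30.1 and 0.622 RPM and TAS3b 19.3 and 0.369 RPM in flowers and 0.106 RPM in DCL4-8:FHA seedlings. TAS3a over TAS3b in DCL4-8:FHA flowers became 5.67 with the maximum and 5.68 between the sites. With the maximum, TAS3a in flowers over seedlings was 3.29 with DCL4-8:FHA, TAS3b over WT flowers at least 320-fold with DCL4-8:FHA, and TAS3a over WT seedlings at least 68.4-fold with DCL4-8:FHA and 1.36-fold with DCL4-6:FHA. A floor of 1 read gave at least 1329-fold and 26.1-fold for TAS3b in flowers with DCL4-8:FHA and DCL4-6:FHA, and 288-fold and 6.18-fold for TAS3a in seedlings. Divided by the median ratio of the loci, DCL4-8:FHA over DCL4-6:FHA was 1.08 for TAS3a and 1 for TAS3b in flowers and 1.83 and 0.160 in seedlings; the flower median is TAS3b itself, so its 1 is fixed by construction. Flowers over seedlings with DCL4-8:FHA was 1.19 for TAS3a and 59.4 for TAS3b. Divided by the median of the other loci, tried after seeing the data, these values were 1.72, 1.59, 1.83, 0.160, 1.71 and 85.4. The 2-fold calls of DCL4-8:FHA over DCL4-6:FHA, of TAS3a in flowers over seedlings with DCL4-8:FHA, and of TAS3a over WT in DCL4-6:FHA seedlings (with the maximum) were thus lost. Distinct left ends in place of reads gave 5.13 for TAS3a and 8.10 for TAS3b in flowers and 5.10 for TAS3a in seedlings; the number of distinct ends is bounded by transcript length, and in DCL4-6:FHA flowers TAS3b gave 27 positions for 26 reads, so that value is not reliable. With the sites included, the share between them was 99.8% for TAS3a and 99.9% for TAS3b in DCL4-8:FHA flowers and 100% for TAS3b in DCL4-6:FHA flowers; with the sites left out it was 99.1% and 99.3% for TAS3a in DCL4-8:FHA flowers and seedlings. The centre of the highest 50 nt window was -203.5 nt for TAS3a with DCL4-8:FHA in both tissues, -204.5 nt in DCL4-6:FHA seedlings and -163.5 nt for TAS3b in DCL4-6:FHA flowers. In bins of 100 nt the TAS3b correlation was 0.988. Leaving out the most frequent left end, tried after seeing the data, kept DCL4-8:FHA over DCL4-6:FHA in flowers at 56.0 for TAS3a and 55.8 for TAS3b. Depth limits the seedling values of TAS3b and every contrast with WT seedlings, the shallowest library.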
